A study of Mus musculus with 12 samples.

Results

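The comparison described here set the transcriptional response of cultured neurons to oxygen-glucose deprivation against their response to kainic acid. For each gene, the log2 fold change of kainic acid (KA) over its own control was subtracted from that of oxygen-glucose deprivation (OGD) over its own control. Genes were then sorted by whether both treatments raised them, both lowered them or the treatments moved them in opposite directions. The table holds 22899 genes, 13139 of them passed the filter on low counts, and all 12 libraries entered the comparison. Among these genes, 445 rose after both treatments, 523 fell after both, 1473 rose after OGD and fell after KA, and 1683 fell after OGD and rose after KA.

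The cells were primary neurons from C57Bl6 mice, and every group was of this strain and cell type with no genetic change named in the labels. The 4 groups of 3 libraries were OGD, OGD control, KA at 100 µM and KA control. The length of exposure, any recovery time and the makeup of the control media were not given in the sources used here. Nothing in the labels says that replicates came from separate cultures, so p-values measure the spread among these libraries, and that spread may be technical.

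Oxygen-glucose deprivation withdraws the fuels of oxidative metabolism and glycolysis and is used as a culture model of ischaemia. Kainic acid opens AMPA and kainate receptors, depolarizes neurons and lets calcium in, and is used as a model of excitotoxic injury. In the intact brain the forms of injury are linked, because energy failure releases glutamate. Calcium entry induces immediate early genes, many of them transcription factors such as those of the FOS, JUN and EGR families, and a later wave of secreted and synaptic genes such as Bdnf. Low oxygen stabilizes hypoxia-inducible factors, which raise genes for glucose uptake, glycolysis and collagen hydroxylation.

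The library with the fewest counts was KA replicate 3 (12873444) and that with the most was KA control replicate 2 (21142267). Levels below are normalised counts (CPM), scaled to library size and by trimmed mean of M values (TMM), and 1 count was worth 0.0429 to 0.0832 CPM. The TMM factors lay at 0.912 to 0.935 in KA and at 1.10 to 1.11 in KA control. The 50 most abundant genes took 12.9% to 13.4% of counts in KA and 10.9% to 10.98% in KA control. The controls of the 2 experiments differed from each other. KA control and OGD control differed in 9022 genes, or 68.7% of those tested. What separated the control groups (culture, day, medium or library preparation) was not tested and cannot be told apart from the experiment.

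Opposite responses were more numerous than shared ones. The background was high: 5009 genes (38.1%) were called after OGD, 9558 (72.7%) after KA and 8957 (68.2%) for the difference of responses, at a Benjamini-Hochberg adjusted p under 0.05 in edgeR's quasi-likelihood test. Of the 4124 genes called after both treatments, 3156 moved in opposite directions, or 76.5% (exact 95% binomial interval 75.2 to 77.8, which treats genes as independent and covers counting error only). The remaining 968 moved the same way. Among genes that rose after OGD, 63.6% fell after KA and 19.2% rose, whereas 37.6% of all tested genes fell and 35.2% rose after KA. Among genes that fell after OGD, 62.5% rose after KA and 19.4% fell. As shares of all genes tested, the shared rise was 3.39%, the shared fall 3.98%, OGD higher with KA lower 11.2% and OGD lower with KA higher 12.8%.

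**Figure D1:**
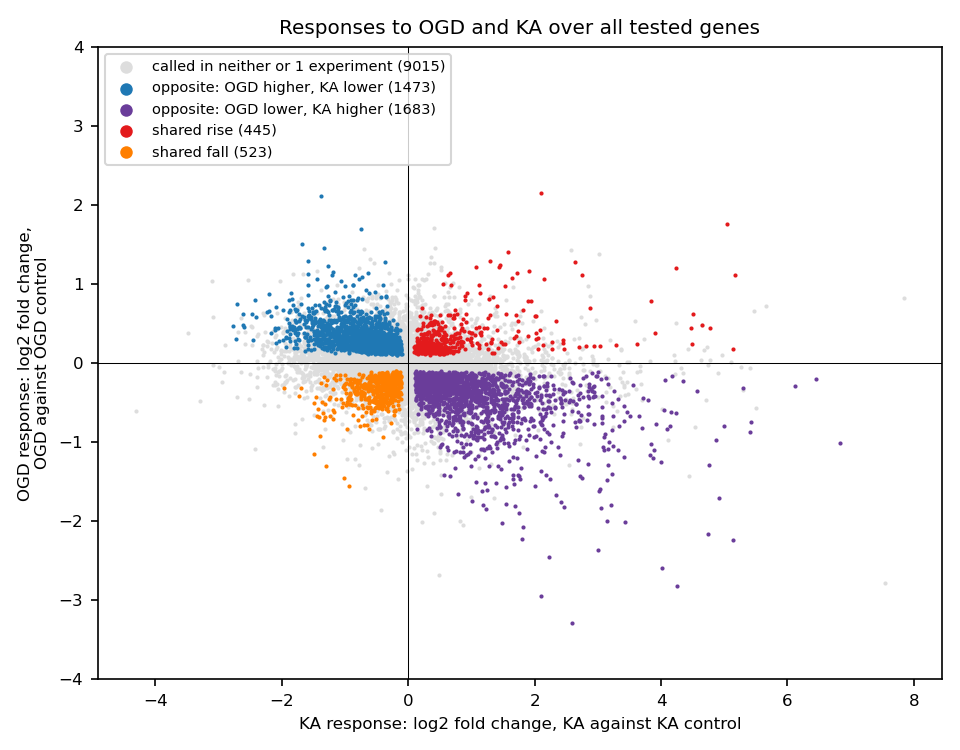
Each point is 1 of the 13139 tested genes, with the log2 fold change of KA against KA control on the x axis and that of OGD against OGD control on the y axis, coloured by how both tests called it. The opposite genes (1473 and 1683) fill the upper left and lower right quadrants, the shared rises (445) and falls (523) lie in the other 2, and the KA axis spans a wider range than the OGD axis.

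The responses also differed in size. Genes of the larger opposite class had a median log2 fold change of -0.36 after OGD and of 0.83 after KA, and those of the other class had 0.29 and -0.69. Over 2-fold in both experiments were 96 genes lower after OGD and higher after KA, 10 genes higher after OGD and lower after KA, 15 shared rises and 3 shared falls. In the difference itself, 4516 genes (34.4%) had the higher response to OGD and 4441 (33.8%) the lower, with 1739 and 1887 of them apart by over 2-fold. Included in these called differences were 216 genes in which neither response passed alone.

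The gap between the controls ran with the opposite responses. By arithmetic, the difference of responses is the sum of the gap between the controls (KA control minus OGD control) and the gap between the treated groups (OGD minus KA). KA control lay above OGD control in 1222 of the 1473 genes that rose after OGD and fell after KA (83%), against 34.5% of all tested genes. KA control lay below OGD control in 1416 of the 1683 genes that moved the other way (84.1%, against 34.2%). In the first class the median control gap was 0.55 and the median treated gap 0.51 on the log2 scale, and in the second they were -0.66 and -0.57. Both classes were chosen on these same controls, so a control gap of this sign follows in part from the choice. Among all genes called for the difference, KA control lay above OGD control in 72.3% of those higher in OGD. It lay below OGD control in 73% of those lower in OGD. The control gap exceeded the treated gap in size in 775 of 1473 (52.6%) and 937 of 1683 opposite genes (55.7%), against 53.7% of all tested genes. By the same arithmetic, a high or low baseline in one control enters an opposite call directly, and its part in each call cannot be told apart from the treatment.

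Among genes lower after OGD and higher after KA, Baz1a, a subunit of ISWI chromatin remodelling complexes, stood at 66.2, 66.6 and 72.1 CPM in the OGD control libraries and at 23.9, 22.1 and 21.9 CPM after OGD. In KA control it stood at 6.52, 5.75 and 5.67 CPM, and after KA at 50.2, 44.2 and 52.7 CPM. The groups did not overlap within either experiment, and OGD control was the highest group and KA control the lowest. Its log2 fold changes were -1.60 (SE 0.07) and 3.03 (SE 0.08), a difference of -4.63 (SE 0.11, adjusted p = 3.73e-25). Dtl, a substrate receptor of a cullin ubiquitin ligase that acts on the replication licensing factor Cdt1, stood at 10.2, 14.7 and 13.4 CPM in OGD control and fell to 4.32, 6.18 and 3.69 CPM after OGD. It went from 1.8, 2.58 and 1.79 CPM in KA control to 6.87, 7.47 and 6.32 CPM in KA (difference -3.15, SE 0.24, adjusted p = 1.36e-12). Cdt1 itself was 7.70 ± 0.86 CPM in OGD control, 3.35 ± 0.21 CPM in OGD, 4.34 ± 0.11 CPM in KA control and 9.90 ± 1.71 CPM in KA (SD, n = 3 each, difference -2.41, SE 0.19).

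Dennd2c, which activates Rab GTPases, fell from 14 ± 0.066 to 5.72 ± 0.50 CPM after OGD and rose from 2.10 ± 0.30 to 19 ± 1.5 CPM after KA. Rrad, a small GTPase that restrains calcium channels and is on the immediate early list, fell from 23 ± 1.68 to 9.47 ± 1.08 CPM and rose from 1.02 ± 0.16 to 27.2 ± 2.14 CPM. In both genes KA control was the lowest group. The secreted protein gene Ism1 (log2 fold changes -1.28 and 2.84), the E3 ligase gene Trim17 (-1.41 and 1.66), the spindle protein gene Fam83d (-1.21 and 1.73), the nucleoporin-like Nup210l (-1.80 and 1.18) and the transcribed pseudogene Gm15760 (-1.18 and 1.66) moved alike. Exons of Baz1a, Trim17 and Rrad overlap those of other annotated genes, and reads carry no strand, so their counts may hold reads of those neighbours.

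Among genes higher after OGD and lower after KA, Dhtkd1, a subunit of a mitochondrial dehydrogenase in lysine breakdown, was counted at 3.28, 4.18 and 4.09 CPM in OGD control and at 8.83, 7.57 and 9.07 CPM in OGD. In KA control it was counted at 12.4, 12.4 and 13 CPM and in KA at 4.36, 5.95 and 5.90 CPM. KA control was the highest group, and the KA libraries lay above the OGD control libraries without overlap. The difference of responses was 2.32 (SE 0.17, adjusted p = 6.46e-13). Stat2, a transcription factor of interferon signalling, rose from 22.3 ± 2.33 to 38.3 ± 2.11 CPM after OGD and fell from 61.8 ± 3.65 to 26.3 ± 0.77 CPM after KA (difference 2.02, SE 0.10, adjusted p = 3.15e-17). Aldh9a1, an aldehyde dehydrogenase, rose from 23.5 ± 1.76 to 39.3 ± 1.5 CPM and fell from 45.2 ± 3.09 to 25.4 ± 0.66 CPM.

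Other genes in this direction were the centriolar satellite gene Cep72 (log2 fold changes 0.79 after OGD and -1.88 after KA), the lysosome-related organelle gene Hps1 (0.79 and -0.81) and the mitochondrial endoribonuclease gene Lactb2 (0.76 and -0.99). Micall2, a Rab-binding regulator of junctions (0.85 and -1.27), 3110057O12Rik (0.99 and -0.87) and Tstd3 (0.77 and -1.14) moved alike. In each of these 6, KA control had a mean above that of OGD control, by 0.67 log2 units in the smallest case (Tstd3). Exons of Dhtkd1, Hps1 and Tstd3 overlap those of other genes.

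**Figure D2:**
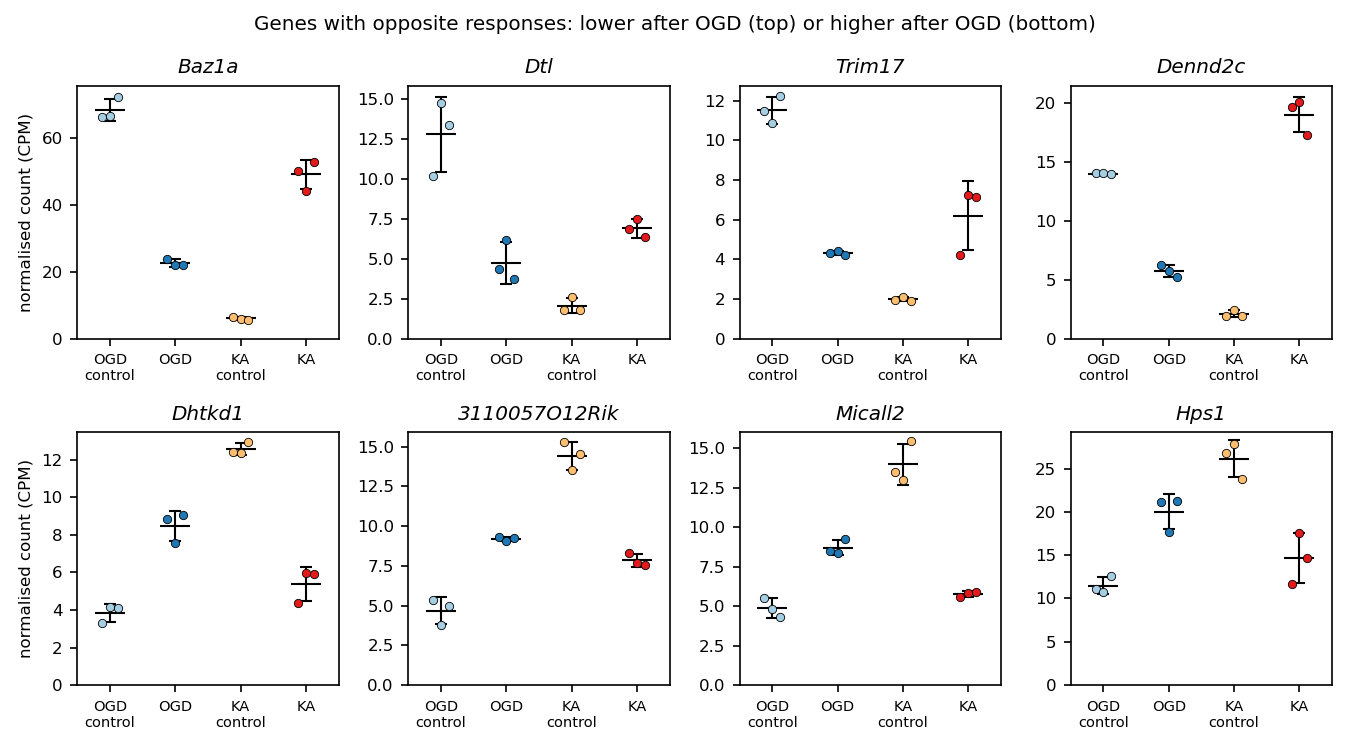
Normalised counts (CPM, linear axis from 0) of Baz1a, Dtl, Trim17 and Dennd2c (top) and Dhtkd1, 3110057O12Rik, Micall2 and Hps1 (bottom) in the 4 groups. Each point is 1 library and bars are the mean ± SD of 3; in the top panels KA control is the lowest group (Baz1a 5.98 CPM) and in the bottom panels the highest (Dhtkd1 12.6 CPM).

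The greatest differences in which OGD had the lower response included Fosb, Klf4, Csrnp1, Rrad and Npas4 of the immediate early list. Fosb, an AP-1 subunit, was at 712, 792 and 791 CPM in OGD control, 694, 647 and 660 CPM after OGD, 9.16, 15.3 and 15.6 CPM in KA control and 1133, 1287 and 1133 CPM in KA. It was already abundant in OGD control, and the low group was KA control. Its difference was -6.65 (SE 0.12, adjusted p = 1.10e-27). Klf4, a zinc-finger transcription factor, differed by -6.40 and stood at 117 ± 6.96 CPM in OGD control against 2.79 ± 0.65 CPM in KA control. Npas4, an activity-dependent transcription factor, differed by -5.60 and stood at 995 ± 29.7 CPM in OGD control against 67.4 ± 5.13 CPM in KA control. The orphan receptor gene Gprc5a (-6.29), the immediate early gene Csrnp1 (-6.18), Rrad (-6.05), the galanin receptor gene Galr1 (-5.84) and Tnfaip6 (-5.79), which encodes a secreted hyaluronan-binding protein, followed. All 8 fell after OGD and rose after KA.

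The greatest differences in which OGD had the higher response came from genes that KA lowered. Alg6, a glucosyltransferase of N-glycan assembly, rose from 5.48 ± 0.87 to 8.39 ± 0.62 CPM after OGD and fell from 15.7 ± 0.65 to 2.56 ± 0.28 CPM after KA (difference 3.24, SE 0.18, adjusted p = 4.75e-16). Parp16, an ADP-ribosyltransferase of the endoplasmic reticulum, also differed by 3.24, and Engase, a cytosolic enzyme that trims free N-glycans, by 3.00. Nxph2, a secreted ligand of neurexins, held 26.7, 26.4 and 24.6 CPM in OGD control, 24.2, 26.7 and 25.1 CPM after OGD and 22.5, 26.5 and 24.3 CPM in KA control, against 2.75, 3.03 and 2.83 CPM in KA. Here 3 groups overlapped and KA stood apart, with a difference of 3.05 (SE 0.14) while the controls overlapped. Wif1, a secreted Wnt inhibitor, was also low in KA alone, at 1.55 ± 0.39 CPM against 10.1 ± 1.52, 12.4 ± 1.23 and 9.998 ± 0.34 CPM in OGD control, OGD and KA control. C330018D20Rik (3.10), the zinc-finger gene Zmat1 (3.09) and the non-coding RNA gene Cep83os (3.05) completed these genes, and for Cep83os and Engase an overlapping gene can share reads.

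Where the difference passed, shared responses were mostly larger after KA. Of the 445 shared rises, 215 rose more after KA, 8 rose more after OGD, and 222 did not pass for the difference. The median log2 fold change of a shared rise was 0.24 after OGD and 0.47 after KA. Of the 523 shared falls, 182 fell more after KA, 36 fell more after OGD, and 305 did not pass, with medians of -0.30 and -0.42. At the edge of the call, Ly86 (larger adjusted p = 0.0495) was the last gene inside the shared rise and Ociad1 (0.0502) the first outside, and Zfand3 (0.0498) and Arhgef7 (0.0503) held these places for the shared fall.

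Each shared gene was then set against the control of the other experiment, that is OGD against KA control and KA against OGD control. In these contrasts 33.2% of all tested genes were called higher and 34.1% lower for OGD against KA control, and 29.3% higher and 28.3% lower for KA against OGD control. They mix the treatment with the gap between experiments and share libraries with the own-control contrasts. They also add up to the same total as the own-control contrasts, so at least 1 of them must lean in the shared direction. Of the 445 shared rises, 242 (54.4%) were higher in both cross comparisons, 108 in OGD against KA control alone, 53 in KA against OGD control alone, and 42 were called lower in 1 of them. Of the 523 shared falls, 220 (42.1%) held in both, 152 in OGD against KA control alone, 64 in KA against OGD control alone, and 87 were called higher in 1. The 462 genes that held were 47.7% of the shared genes, and as shares of all tested genes the rises that held were 1.84% and the falls 1.67%. At an adjusted p under 0.01 in every comparison, 255 rises and 345 falls were shared, and 132 and 139 of them held.

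**Figure D3:**
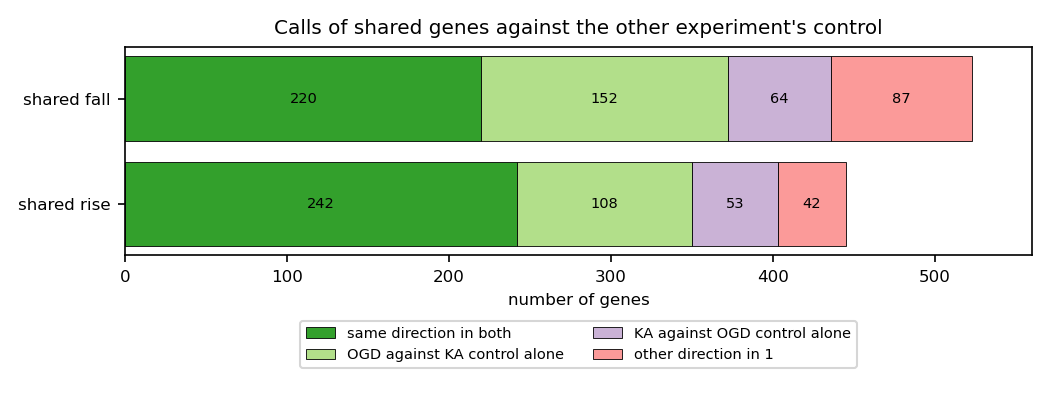
Bars give the number of shared rises (445) and shared falls (523) by how they were called when each treatment was set against the control of the other experiment. The same direction held in both cross comparisons for 242 rises and 220 falls, and 42 and 87 genes were called the other way in 1 of them.

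In 199 of the 242 rises that held, all 6 treated libraries lay above all 6 control libraries, a layout found in 317 of all tested genes (2.41%). In 203 of the 220 falls all 6 lay below, against 302 of all tested genes (2.3%). Both sets were chosen on these same libraries, so this layout follows from the choice and only describes them. For the rises the median log2 fold changes were 0.26 after OGD and 0.60 after KA against own controls, and 0.46 and 0.43 against the other control. For the falls they were -0.32 and -0.50, then -0.43 and -0.36. KA control lay below OGD control in 136 of the 242 rises and above it in 10, and above it in 92 of the 220 falls and below it in 17. Among rises, 9 genes exceeded 2-fold in all 4 comparisons, all of them at or below 1.22 logCPM, and no fall did. These 9, named after their values were seen, were 4930488L21Rik, Igf1, Gja6, 4930565N06Rik, Snora31, Hoxb13, Arc, Gli1 and Gpsm1.

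Among the 12 rises named, with at least 2 logCPM and no overlap of treated and control libraries, Stil, a protein of centriole duplication, had the largest smallest change over the 4 comparisons. It was counted at 3.74, 4.18 and 4.22 CPM in OGD control, 8.21, 7.05 and 5.82 CPM after OGD, 2.75, 2.62 and 2.91 CPM in KA control and 9.45, 10.6 and 10.7 CPM in KA. The KA libraries were the highest and both controls lay below every treated library. Its log2 fold changes against own controls were 0.78 (SE 0.13, adjusted p = 2.82e-05) and 1.90 (SE 0.13, adjusted p = 8.7e-14), and against the other control 1.34 for both treatments.

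Egr1, a zinc-finger transcription factor of the immediate early class, stood at 104, 116 and 117 CPM in OGD control, 180, 193 and 209 CPM after OGD, 12.1, 13.2 and 12.2 CPM in KA control and 176, 192 and 174 CPM in KA. The treated groups overlapped, and OGD control lay far above KA control. Its log2 fold change was 0.79 (SE 0.06) after OGD and 3.85 (SE 0.07) after KA, and in KA against OGD control it was still 0.68 (SE 0.06, adjusted p = 1.27e-11). Nfkbie, which encodes an inhibitor of NF-kB, went from 3.66 ± 0.21 to 5.85 ± 0.77 CPM after OGD and from 2.71 ± 0.35 to 9.43 ± 1.26 CPM after KA. Its 4 log2 fold changes lay between 0.68 and 1.82. Gmppb, which makes GDP-mannose, was the named rise with the larger response to OGD, at 17.1 ± 1.62 and 37.4 ± 2.30 CPM in OGD control and OGD against 19.7 ± 1.82 and 30.9 ± 0.96 CPM in KA control and KA (difference 0.48, SE 0.11, adjusted p = 0.000268). Its exons overlap those of Gm20529 and Rnf123.

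Among the other rises, P4ha1, a collagen prolyl hydroxylase subunit induced by low oxygen, was at 66.5, 66.3 and 67.9 CPM in OGD control, 116, 95.2 and 97.3 CPM after OGD, 60.5, 62.6 and 63 CPM in KA control and 121, 113 and 118 CPM in KA. Its controls lay close together, and both treatments raised it (log2 fold changes 0.62 and 0.92, difference -0.30, SE 0.08, adjusted p = 0.00198). Btg2, an antiproliferative gene that is both immediate early and a p53 target, rose from 116 ± 2.06 to 163 ± 3.56 CPM and from 10.7 ± 1.66 to 270 ± 16 CPM. Cbx8, a Polycomb chromobox protein, rose from 20.9 ± 0.63 to 30.3 ± 1.54 CPM and from 14.4 ± 1.04 to 48.1 ± 1.44 CPM. Slc24a4, a cation exchanger, rose by 0.60 and 2.0 on the log2 scale, Esm1, a secreted proteoglycan, by 0.62 and 4.50, and Suv420h1, a histone methyltransferase, by 0.61 and 1.30.

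Spag4, a SUN-domain protein, rose from 12.2 ± 1.87 to 21.7 ± 1.85 CPM after OGD and from 7.56 ± 0.12 to 18.1 ± 2.85 CPM after KA. Pnpla3, a lipid hydrolase, rose from 17 ± 2.9 to 25 ± 4.01 CPM and from 16.5 ± 0.60 to 29.8 ± 7.37 CPM, with log2 fold changes of 0.56 and 0.86 and a difference of -0.30 (SE 0.18) that missed the threshold (adjusted p = 0.138). The difference for Pnpla3 passed in 4 of 17 alternatives: with no count filter, without OGD replicate 1, without OGD control replicate 2, and without KA replicate 1 (-0.47, adjusted p = 0.00479). That for Spag4 (-0.46, adjusted p = 0.00967) was lost without OGD control replicate 2. Exons of Pnpla3 overlap those of Gm49513.

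**Figure D4:**
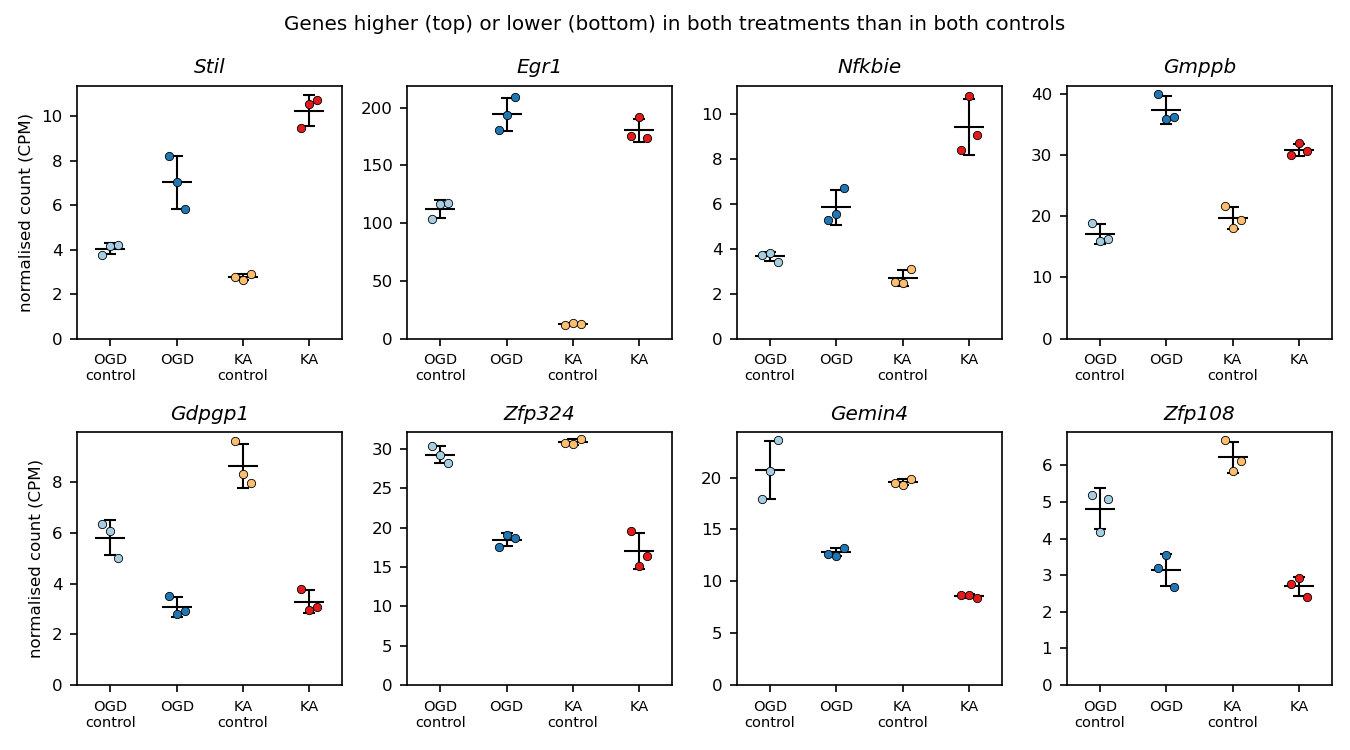
Normalised counts (CPM, linear axis from 0) of Stil, Egr1, Nfkbie and Gmppb (top) and Gdpgp1, Zfp324, Gemin4 and Zfp108 (bottom) in the 4 groups, with 1 point per library and bars for the mean ± SD of 3. In each top panel the 6 treated libraries lie above the 6 control libraries, and in each bottom panel they lie below; Egr1 has its lowest group in KA control (12.5 CPM).

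The promoters of these genes were read for short motifs of factors known to act downstream of calcium, growth signals and low oxygen. Windows of 300 bases, 250 before and 50 after a start, came from RefSeq (GRCm38.p6) and matched 9806 of the tested genes, with 12267 windows. The motifs were searched on both strands: the cyclic AMP response element TGACGTCA, bound by CREB and ATF proteins, the AP-1 site TGANTCA, the EGR site GCGNGGGCG, the core of the hypoxia response element ACGTG, the E-box CACGTG (which contains that core) and the CArG box of serum response factor. TGACGTCA was in 3.24% of all windows, in 20 of 248 windows of the rises that held (8.06%) and in 0 of 219 windows of the falls that held. Over all shared genes, held or not, it was in 7.51% of windows of the rises and 1.28% of those of the falls. The CArG box was in 1.3% of all windows and in 3.97% of those of all shared rises. It was in 14 windows of the rises that held (5.65%), from 11 genes. Once the immediate early list was left out, it was in 4.18%, from 10 genes. These shares describe letters, not binding.

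The named rises were then read gene by gene, without Egr1, Gmppb and Suv420h1. No window of these genes was read in this step, which does not show that they lack one. Of the 9 named rises that were read, 4 carried TGACGTCA: Btg2, Spag4, Pnpla3 and Cbx8. Their windows are shown because they carry the same 8 letters in genes that both injuries raised. Capitals mark every match to the motifs above, on either strand. In Btg2 the second match is to the EGR site, and Cbx8 also has an E-box and matches to the hypoxia core. The window of P4ha1 is shown as a gene of the low-oxygen list with 1 match to the hypoxia core, read on the reverse strand, a match found in 25.2% of all windows. Dtl is shown for contrast, as a gene with TGACGTCA whose response differed between the treatments. The windows are on chromosome 1 (Btg2, chr1:134079106-134079405, minus strand, and Dtl, chr1:191575495-191575794, minus strand), chr2:156064963-156065262 (Spag4, plus), chr15:84167566-84167865 (Pnpla3, plus), chr11:119040864-119041163 (Cbx8, minus) and chr10:59323046-59323345 (P4ha1, plus).
Btg2: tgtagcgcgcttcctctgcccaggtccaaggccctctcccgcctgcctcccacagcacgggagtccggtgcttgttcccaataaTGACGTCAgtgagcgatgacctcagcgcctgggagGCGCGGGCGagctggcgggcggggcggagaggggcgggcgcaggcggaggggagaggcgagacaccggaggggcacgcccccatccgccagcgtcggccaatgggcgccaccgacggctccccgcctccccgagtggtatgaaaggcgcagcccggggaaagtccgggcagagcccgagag
Spag4: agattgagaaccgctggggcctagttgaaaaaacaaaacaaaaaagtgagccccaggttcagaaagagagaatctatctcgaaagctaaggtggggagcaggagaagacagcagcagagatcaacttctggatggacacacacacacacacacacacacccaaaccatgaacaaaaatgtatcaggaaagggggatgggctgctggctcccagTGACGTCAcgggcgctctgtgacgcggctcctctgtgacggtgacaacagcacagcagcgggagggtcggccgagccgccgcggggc
Pnpla3: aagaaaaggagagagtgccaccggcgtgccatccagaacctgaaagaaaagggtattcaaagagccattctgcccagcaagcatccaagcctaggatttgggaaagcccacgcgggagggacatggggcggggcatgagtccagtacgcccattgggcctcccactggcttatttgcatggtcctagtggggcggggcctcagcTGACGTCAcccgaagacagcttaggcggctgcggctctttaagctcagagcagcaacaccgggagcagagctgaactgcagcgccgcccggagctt
Cbx8: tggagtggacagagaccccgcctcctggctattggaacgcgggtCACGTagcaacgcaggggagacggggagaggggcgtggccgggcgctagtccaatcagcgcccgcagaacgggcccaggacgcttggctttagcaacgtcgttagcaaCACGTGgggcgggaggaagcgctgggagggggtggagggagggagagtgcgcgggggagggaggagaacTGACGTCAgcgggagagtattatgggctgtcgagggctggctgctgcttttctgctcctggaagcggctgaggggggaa
P4ha1: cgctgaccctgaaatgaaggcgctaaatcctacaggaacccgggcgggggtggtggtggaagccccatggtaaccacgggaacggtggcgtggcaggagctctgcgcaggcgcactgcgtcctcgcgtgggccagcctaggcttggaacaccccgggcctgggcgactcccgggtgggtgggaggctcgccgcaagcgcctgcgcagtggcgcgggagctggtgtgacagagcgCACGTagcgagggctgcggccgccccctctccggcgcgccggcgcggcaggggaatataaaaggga
Dtl: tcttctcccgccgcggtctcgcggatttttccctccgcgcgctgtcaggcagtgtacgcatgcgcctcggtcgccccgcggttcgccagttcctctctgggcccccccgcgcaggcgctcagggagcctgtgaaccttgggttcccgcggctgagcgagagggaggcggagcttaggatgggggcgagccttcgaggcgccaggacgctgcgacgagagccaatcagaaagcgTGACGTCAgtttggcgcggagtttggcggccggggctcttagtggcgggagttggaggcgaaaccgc

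In the opposite classes TGACGTCA was in 4.01% of windows of genes lower after OGD and higher after KA and in 2.3% of the other opposite class. The hypoxia core ACGTG was in 30.6% of windows of the rises that held, in 29.8% of windows of genes higher after OGD and lower after KA and in 26.3% of the other opposite class. The E-box was in 9.95% of all windows, in 10.9% of those of the rises that held, and in 12.9% and 9.13% of those of genes higher and lower after OGD in the opposite classes. The EGR site was in 10.7% of all windows and in 17.8% of those of the falls that held, and the AP-1 site in 4.64% of all windows and 4.44% of those of the rises.

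Of the 12 falls named by the same rule, Zfp324, a zinc-finger protein, was at 30.3, 29.2 and 28.2 CPM in OGD control, 17.6, 19.1 and 18.7 CPM after OGD, 30.7, 30.6 and 31.3 CPM in KA control and 19.6, 15.2 and 16.4 CPM in KA. The controls lay between 28.2 and 31.3 CPM and every treated library was below them. Its log2 fold changes were -0.66 (SE 0.07, adjusted p = 4.4e-08) and -0.87 (SE 0.08, adjusted p = 1.69e-11), and the difference of 0.21 (SE 0.11) missed the threshold (adjusted p = 0.0799), but passed with no count filter (adjusted p = 0.0449) and without KA replicate 1 (0.32, adjusted p = 0.00667). Gemin4, part of the SMN complex that assembles spliceosomal particles, fell from 20.7 ± 2.82 to 12.8 ± 0.39 CPM and from 19.6 ± 0.29 to 8.59 ± 0.17 CPM (difference 0.48, SE 0.13, adjusted p = 0.00164). Exons of Gemin4 overlap those of Glod4 and of genes on the other strand.

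Gdpgp1, a GDP-glucose phosphorylase, fell from 5.81 ± 0.71 to 3.07 ± 0.39 CPM after OGD and from 8.64 ± 0.86 to 3.28 ± 0.45 CPM after KA. Its smallest change over the 4 comparisons, -0.83, was the greatest of the named falls. Gne, the enzyme that starts sialic acid synthesis, fell from 20.2 ± 0.63 to 11.4 ± 1.38 CPM and from 21.3 ± 1.38 to 13.8 ± 0.16 CPM. Klhl21, an adaptor of a cullin ubiquitin ligase, fell by 0.79 and 0.66 on the log2 scale, and Pard3, a cell polarity scaffold, by 0.61 and 0.55. For these 3 genes (Gne, Klhl21 and Pard3) the log2 differences of responses were -0.21 (SE 0.12), -0.13 (SE 0.12) and -0.06 (SE 0.15), none past the threshold, which does not show that the responses were equal. That for Gne passed without OGD replicate 1 (-0.30, adjusted p = 0.0313).

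Adora2a, an adenosine receptor gene, was counted at 5.27, 4.48 and 4.28 CPM in OGD control, 2.51, 3.26 and 3.08 CPM after OGD, 4.72, 4.55 and 5.11 CPM in KA control and 2.42, 3.93 and 2.91 CPM in KA. The treated libraries lay below the controls, KA replicate 2 the nearest to them. Without KA replicate 1 its call in KA against OGD control was lost (adjusted p = 0.0511). The cadherin gene Cdh8 (log2 fold changes -0.54 and -0.74), the receptor gene Gpr75 (-0.55 and -1.05), the SOCS-box gene Spsb4 (-0.53 and -0.88) and the zinc-finger genes Zfp108 (-0.60 and -1.18) and Zfp111 (-0.67 and -0.73) completed the 12. The differences for Gdpgp1 (adjusted p = 0.0451), Zfp108 (0.0163), Gpr75 (0.0123) and Spsb4 (0.0267) passed, but not in DESeq2's Wald test. Of 17 alternatives in all, including that test, the call was lost in 8 for Gdpgp1 (6 of them leaving out 1 library), in 4 for Spsb4, in 3 for Zfp108 and in 2 for Gpr75. Exons of Klhl21, Cdh8, Gpr75 and Spsb4 overlap those of other genes.

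Genes that both treatments moved alike against their own controls, and that the cross comparison called the other way, showed where the shared direction rests on the choice of control. Hmgb2, a chromatin protein of the high-mobility group, was at 22.7, 24.5 and 26.5 CPM in OGD control, 35.7, 33.9 and 34.6 CPM after OGD, 49.9, 54.7 and 52.3 CPM in KA control and 72.5, 71.8 and 74.5 CPM in KA. Both experiments rose by a like factor (0.49 and 0.48 on the log2 scale, difference 0.02, SE 0.08) from different baselines, and OGD lay below KA control by 0.59. Arrdc3, an arrestin-domain adaptor, had 91.6 ± 5.71 and 132 ± 4.55 CPM in OGD control and OGD and 193 ± 7.52 and 260 ± 2.8 CPM in KA control and KA. N4bp2l2 and Nfya, a subunit of the CCAAT-binding factor, had the same layout, and 1810011O10Rik the reverse, with KA below OGD control by 0.99. Nfya lost its OGD call without OGD control replicate 3 (adjusted p = 0.07).

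Among falls of this kind, Ccdc71l was at 33.4 ± 1.73 and 23.1 ± 1.49 CPM in OGD control and OGD and at 70.6 ± 2.04 and 50.7 ± 1.97 CPM in KA control and KA, so KA lay above OGD control by 0.60 on the log2 scale. Fzd9, a Wnt receptor gene, was at 7.34 ± 0.27 and 5.38 ± 0.91 CPM, then 21.2 ± 2.31 and 13.6 ± 1.62 CPM, and lost its OGD call without OGD replicate 2 (adjusted p = 0.0838). Trim59, the cyclin F gene Ccnf and Kbtbd7 fell in both experiments and were higher in KA than in OGD control by 0.24, 0.26 and 0.17. In these 5 falls and in 4 of the 5 rises, the baseline was higher in the KA experiment. The whole set was more evenly split. Of the 42 rises called the other way, 22 had OGD below KA control and 20 had KA below OGD control. Of the 87 such falls, 55 had KA above OGD control and 32 had OGD above KA control.

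Immediate early genes moved differently in the 2 experiments, from unlike baselines. Of 42 tested, 8 rose and 19 fell after OGD (median log2 fold change -0.14), and 40 rose and 1 fell after KA (median 3.84). The medians over all tested genes were 0.01 and -0.02. Of all tested genes, 17.6% rose and 20.5% fell after OGD, and 35.2% rose and 37.6% fell after KA. These shares are the background for each list below. KA control lay below OGD control in 39 of the 42 and above it in 3 (median gap -2.90). Their summed level was 10073 to 10762 CPM in OGD control and 1818 to 1963 CPM in KA control. OGD against KA control was higher in 35 and lower in 3 (median 3.06). The part of this baseline in the KA rises was not tested. For the difference, 41 were lower and 1 higher in OGD. Of the 26 immediate early genes called after both treatments, 18 were opposite, against 76.5% of all genes so called. The opposite genes included Fosb, Npas4, Klf4, Nr4a2, Nr4a3, Mcl1 and Sik1. The 8 shared rises were Arc, Atf3, Btg2, Egr1, Egr2, Egr4, Ier2 and Jun. All 8 shared rises also held against the other control. Jun, an AP-1 subunit, was at 335, 366 and 364 CPM in OGD control, 446, 440 and 506 CPM after OGD, 47.4, 57.9 and 54.4 CPM in KA control and 758, 892 and 738 CPM in KA. Every treated library was above every control library, with KA control far below the other groups.

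Of the other shared immediate early genes, Atf3, a stress-induced bZIP factor, rose from 73.1 ± 2.02 to 99.5 ± 3.85 CPM after OGD and from 7.05 ± 0.47 to 192 ± 9.40 CPM after KA. Egr4 rose from 83.8 ± 3.80 to 98.9 ± 11.7 CPM and from 6.73 ± 0.32 to 151 ± 17.8 CPM, and Egr2 rose by 0.17 and 5.13 and Ier2 by 0.20 and 2.71 on the log2 scale. Arc, a regulator of AMPA receptor trafficking, was near the floor of the counts, at 0.88 ± 0.19 and 1.87 ± 0.27 CPM in OGD control and OGD and 0.081 ± 0.023 and 3.16 ± 0.43 CPM in KA control and KA. Of the family that feeds back on ERK signalling (17 tested), 9 fell after OGD and 15 rose after KA, with 8 opposite genes among 9 called after both. KA control lay below OGD control in 15 of these 17 and above it in 2. Dusp6, an ERK phosphatase, was at 141 ± 3.76 and 119 ± 2.11 CPM in OGD control and OGD and at 54.3 ± 2.03 and 332 ± 11.8 CPM in KA control and KA.

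Late activity-regulated genes had no shared member. Of 34 tested, 29 fell after OGD and none rose (median -0.36), and 33 rose after KA and none fell (median 2.03). All 34 had the lower response to OGD. All 28 genes called after both treatments were opposite, against 76.5% of all genes so called. KA control lay below OGD control in 33 of the 34 and above it in none (median gap -1.69 on the log2 scale). Bdnf, a neurotrophin gene, was at 40.1 ± 3.04 CPM in OGD control, 20.9 ± 1.51 CPM in OGD, 7.90 ± 0.55 CPM in KA control and 67.6 ± 3.43 CPM in KA. Nptx2, a synaptic pentraxin, was at 309 ± 18.7, 173 ± 19.6, 48.1 ± 2.74 and 822 ± 60.4 CPM in the same order. For both genes OGD lay above KA control although OGD lowered them. Among 33 secreted growth factors and neuropeptides, 17 fell and 2 rose after OGD, and 27 rose and 1 fell after KA. Of 19 called after both, 18 were opposite, and KA control lay below OGD control in 24 of the 33 and above it in 1. Their only shared gene was Igf1, an insulin-like growth factor, at 0.30 ± 0.12, 1.07 ± 0.33, 0.033 ± 0.029 and 1.29 ± 0.33 CPM in OGD control, OGD, KA control and KA, levels of few counts.

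Genes induced by low oxygen did not follow one treatment. Of 26 tested, 12 rose and 3 fell after OGD (median 0.11), against 17.6% and 20.5% of all tested genes. After KA 14 rose and 8 fell (median 0.45), against 35.2% and 37.6%. The difference was higher in OGD for 9 and lower for 13, against 34.4% and 33.8%. The shared rises were Ak4, Ddit4, Egln3, P4ha1 and Slc2a1, and all but Egln3 held against the other control. Ddit4, an inhibitor of mTORC1 that is also on the p53 and ATF4 lists, was at 396, 432 and 390 CPM in OGD control, 583, 544 and 528 CPM after OGD, 360, 378 and 383 CPM in KA control and 820, 798 and 744 CPM in KA. Its controls nearly met, and it rose by 0.44 and 1.07 on the log2 scale (difference -0.63, SE 0.07, adjusted p = 1.84e-09). Slc2a1, a glucose transporter, rose from 60.6 ± 5.80 to 77 ± 10.3 CPM and from 42.8 ± 4.25 to 140 ± 8.52 CPM. Egln1, the prolyl hydroxylase that marks hypoxia-inducible factors for breakdown, fell from 104 ± 3.96 to 94.2 ± 1.47 CPM and from 125 ± 3.68 to 73.3 ± 3.16 CPM, and held.

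The same list also held 7 opposite genes among 13 called after both treatments, against 76.5% of all genes so called. Pdk1, a kinase that inactivates pyruvate dehydrogenase, went from 49.1 ± 3.99 to 72 ± 3.53 CPM after OGD and from 90.7 ± 2.31 to 47.1 ± 3.95 CPM after KA. Narf, Hk2, Ndrg1 and Ankrd37 moved in the same directions as Pdk1, while the neuronal glucose transporter gene Slc2a3 and Stc2 moved in the other. Slc2a3 was at 1091 ± 24.8 and 901 ± 48.04 CPM in OGD control and OGD and at 290 ± 7.35 and 1414 ± 19.6 CPM in KA control and KA. Of 21 glycolysis enzymes, 7 rose and none fell after OGD, against 17.6% and 20.5% of all tested genes. After KA 12 of them rose and 5 fell, against 35.2% and 37.6%. Tpi1, triosephosphate isomerase, rose in all 4 comparisons, by 0.13 to 0.43 on the log2 scale.

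Ribosomal protein genes supplied the largest block of shared rises among the lists. Of 78 tested, 29 rose and none fell after OGD (median 0.10), against 17.6% and 20.5% of all tested genes. After KA 75 rose and 1 fell (median 0.50), against 35.2% and 37.6%. The response to OGD was called lower in 70, against 33.8%. These genes included 28 shared rises, of which 19 held against the other control, classes of 3.39% and 1.84% of all tested genes. Of 29 called after both treatments 1 was opposite, against 76.5% of all genes so called. Rpl3 was at 759, 770 and 780 CPM in OGD control, 913, 871 and 909 CPM after OGD, 662, 665 and 656 CPM in KA control and 861, 874 and 797 CPM in KA. The rises were small, and KA replicate 3 lay nearest to the OGD control libraries. Ribosomal protein genes have many processed pseudogene copies that can share reads. Of 74 nuclear-encoded respiratory chain genes, 21 rose and none fell after OGD, against 17.6% and 20.5% of all tested genes. After KA 45 rose and 13 fell, against 35.2% and 37.6%. Among them were 9 shared rises, of which only Atp5e held, and 6 opposite genes of 15 called after both.

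Among all genes called after both treatments 76.5% were opposite, and several of the stress lists lay near that share. After OGD 17.6% of all tested genes rose and 20.5% fell, and after KA 35.2% rose and 37.6% fell. Of 23 heat-shock chaperones, 3 rose and 10 fell after OGD and 17 rose and 4 fell after KA. Of 12 called after both treatments, 10 were opposite. Hsph1, a co-chaperone of HSP70, was at 491 ± 14.1 and 433 ± 10.5 CPM in OGD control and OGD and at 421 ± 6.36 and 941 ± 32.2 CPM in KA control and KA. The 2 shared rises were Hspa1a and Hspa1b, near-identical neighbours whose reads cannot be told apart. Hspa1a had 4.84 ± 0.60 and 11.4 ± 1.02 CPM in the OGD experiment and 2.25 ± 0.25 and 6.17 ± 0.20 CPM in the KA experiment, and it held. Of 23 genes of the BCL2 family and death effectors, 8 rose and 2 fell after OGD and 7 rose and 11 fell after KA. The difference was higher in OGD for 12 and lower for 7, against 34.4% and 33.8% of all tested genes.

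Among death genes, 5 rose after OGD and fell after KA, of which Bid, Bbc3, Hrk and Htra2 are named here. Only 1, the anti-apoptotic member Mcl1, fell after OGD and rose after KA. These opposite classes held 11.2% and 12.8% of all tested genes. Bbc3, which encodes the BH3-only protein PUMA, went from 15.8 ± 1.01 to 21.2 ± 2.13 CPM and from 44 ± 1.73 to 16.9 ± 2.24 CPM. Pmaip1, which encodes NOXA, was at 30.8 ± 1.11 and 33.1 ± 2.91 CPM in OGD control and OGD and at 31.1 ± 1.09 and 144 ± 11.2 CPM in KA control and KA. For Pmaip1 the controls overlapped in mean ± SD, KA passed and OGD did not, and the difference passed (adjusted p = 3.9e-18). Of 24 p53 targets, 9 rose and 6 fell after OGD, against 17.6% and 20.5% of all tested genes. After KA 13 rose and 5 fell, against 35.2% and 37.6%, with 11 opposite and 2 shared. ATF4 targets (27 tested) had 7 opposite and 2 shared genes, ER chaperones (22) had 5 and 2, oxidative stress genes (24) had 8 and 1, axon injury genes (27) had 11 and 3, clock genes (15) had 5 and 0, and cholesterol synthesis genes (22) had 9 and 2.

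**Figure D5:**
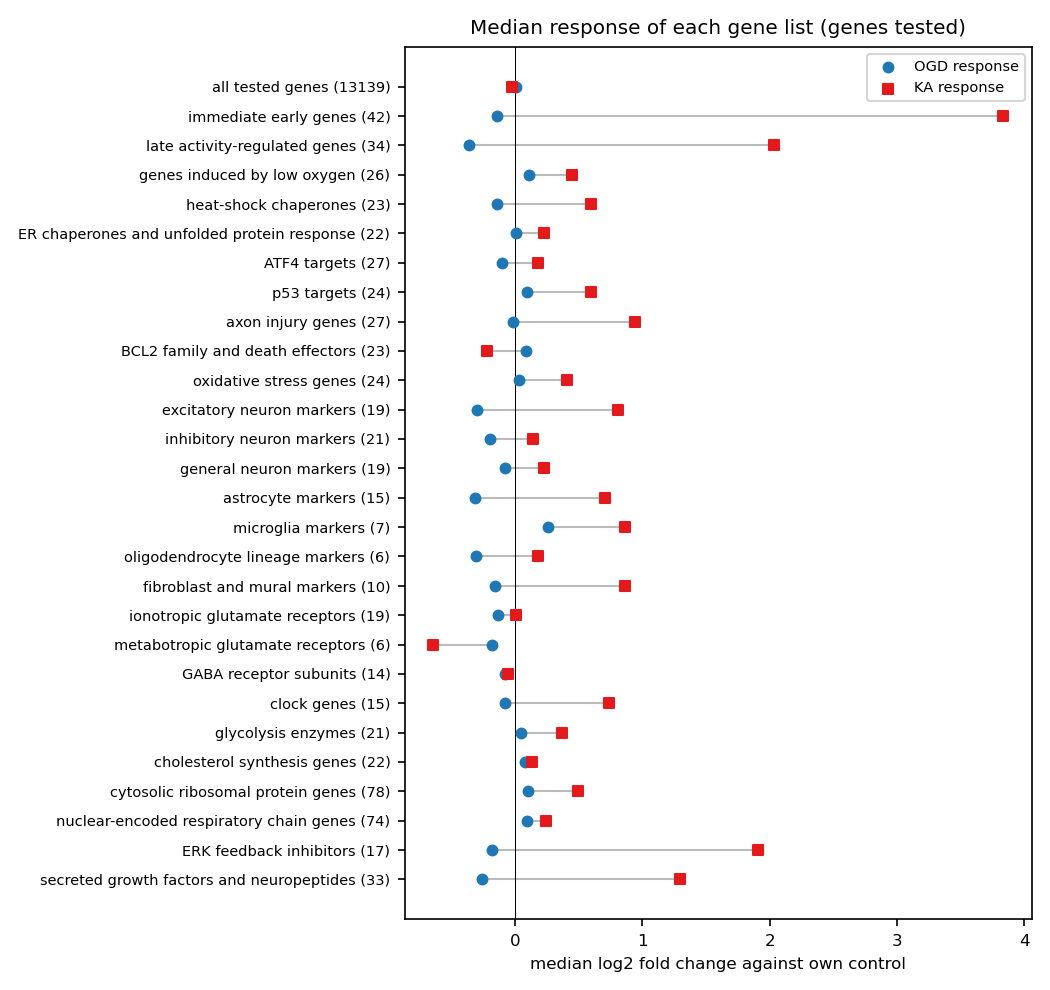
Median log2 fold change of each gene list with at least 5 tested members after OGD (circles) and after KA (squares), each against its own control, with the number of genes tested in brackets. Immediate early genes (-0.14 and 3.84) and late activity-regulated genes (-0.36 and 2.03) have the widest gaps, and metabotropic glutamate receptors lie below 0 for both.

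Receptor lists held some shared falls, a class of 3.98% of all tested genes, and no shared rise, a class of 3.39%. The counts below stand against all tested genes, of which 17.6% rose and 20.5% fell after OGD. After KA 35.2% of all tested genes rose and 37.6% fell. Of 6 metabotropic glutamate receptor genes, 2 fell after OGD and 5 after KA and none rose, with 2 shared falls that did not hold. Grm7, a presynaptic receptor gene, was at 59.9 ± 3.70 and 49 ± 2.04 CPM in OGD control and OGD and at 101.4 ± 4.75 and 66.3 ± 1.43 CPM in KA control and KA. Of 19 ionotropic glutamate receptor genes, 1 rose and 5 fell after OGD and 7 rose and 6 fell after KA, with 3 opposite and 2 shared. Grin2a, an NMDA receptor subunit, was at 26.9 ± 2.26, 24.7 ± 2.42, 9.58 ± 1.21 and 38.3 ± 3.33 CPM in OGD control, OGD, KA control and KA. Of 14 GABA receptor subunit genes, 5 fell after OGD and 6 rose and 7 fell after KA, with 2 opposite genes and 3 shared falls, of which 2 held. Gabrb2 fell in all 4 comparisons. Gabrb2 went from 205 ± 8.63 to 170 ± 8.36 CPM after OGD and from 267 ± 6.71 to 165 ± 17.3 CPM after KA (difference 0.43, SE 0.08).

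Cell type markers moved with both responses, so that the comparison also differed in neuron and astrocyte markers. Of all tested genes, 17.6% rose and 20.5% fell after OGD, 35.2% rose and 37.6% fell after KA, and 33.8% had the lower response to OGD. Of 19 excitatory neuron markers, 12 fell after OGD and none rose, and 16 rose and 2 fell after KA. The response to OGD was the lower in 17 of them (11 opposite, 0 shared). Their summed level was 2674 to 2911 CPM in OGD control, 1981 to 1999 CPM after OGD, 2013 to 2055 CPM in KA control and 4274 to 4536 CPM in KA. Of 21 inhibitory markers, 11 fell after OGD and 10 rose and 7 fell after KA, and their sum was 4677 to 4878 CPM in OGD control and 1661 to 1716 CPM in KA control. Of 15 astrocyte markers, 7 fell after OGD and 10 rose after KA, with sums of 496 to 536, 377 to 398, 399 to 422 and 924 to 998 CPM in OGD control, OGD, KA control and KA. The general neuron list had 3 shared genes, and Elavl2, a neuronal RNA-binding protein gene, fell in all 4 comparisons. In these bulk libraries fewer cells of a type and less RNA per cell cannot be told apart, and the part of cell makeup in the opposite responses was not tested.

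Other cell types were near the floor. Of 7 microglial markers tested (14 listed), 5 rose after KA (C1qa, C1qb, C1qc, Csf1r and Cx3cr1, by 0.66 to 1.51 on the log2 scale), 1 rose after OGD and none was called after both, with a called difference lower in OGD for 3 and higher for 1. The list had sums of 17.3 to 26.8 CPM over all libraries, and Ptprc at 0 in every group. Both endothelial markers tested rose after KA, and the list summed to 2.10 to 5.65 CPM, with Emcn and Ly6c1 at 0. Of 6 oligodendrocyte lineage markers, 2 fell after OGD and 2 rose after KA, and the list summed to 34.1 to 50.1 CPM, mostly Mbp, with Sox10 and Pdgfra at or near 0. Fibroblast and mural markers summed to 25.1 to 27.6 CPM in OGD control, 20.5 to 23.7 CPM after OGD, 10.1 to 10.4 CPM in KA control and 26.5 to 28.02 CPM in KA, with 6 of 10 higher after KA, 1 lower after OGD and 1 opposite gene, Col1a1. Blood and choroid plexus markers summed to 19.2 to 26.5 CPM in the OGD experiment and 3.48 to 6.85 CPM in the KA experiment, most of it Ttr, and the haemoglobin genes were at 0.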

How the data were processed

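RNA from 12 libraries in 4 groups of 3 was sequenced. Per the labels, RNA was taken on RNeasy columns and made into libraries with an unstranded TruSeq kit. The submitters' processing notes list bcl2fastq 1.8.4 and TopHat 1.4.1, along with HTSeq 0.6.1, and build mm10. Their settings and gene models were not stated in the sources used here. The deposited values are raw counts per gene symbol, not normalized by the authors. Column headers read OGT where titles read OGD and were matched by name, 1 letter apart.

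Counts were filtered with filterByExpr (minimum count 10, minimum total 15), scaled by TMM and fitted as 4 group means over 12 libraries with edgeR 4.0.16 in R 4.3.3 (quasi-likelihood test, 8 residual degrees of freedom, common biological coefficient of variation 0.0402). Calls used an adjusted p under 0.05 (Benjamini-Hochberg, over all 13139 tested genes of a contrast). A shared gene was called in the same direction against both own controls, and it held if also called so against both other controls. No replicate pair agreed within sampling noise (its chi-square, per degree of freedom, was 1.48 to 6.19), and each library counted once.

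The genes, the 29 gene lists and the rules were chosen with earlier results of these data known. Named genes were, at 2 logCPM or more, the 12 rises and 12 falls that held with the largest smallest change and no overlap of libraries, 10 per opposite class, the 8 largest differences per direction, 5 per direction called the other way in a cross comparison, and, at any level, the genes at the edge of a call and up to 3 list members by smallest p. Other list members named were chosen for their class. Not every gene so selected is described, and a few are not reported here. Gene positions and overlaps came from GENCODE M21 (mm10), which matched 12485 tested genes by symbol, and promoter sequences from RefSeq (GRCm38.p6). Alternatives were DESeq2 1.42.0, its size factors, no filter, 1 CPM in every library of a group, adjusted p under 0.01, a block on replicate number, leaving out each library, and, added after seeing the data, genes with 1 curated transcript.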

Additional observations from a re-analysis of the deposited data

How the results depend on the processing

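The share of opposite genes among those called after both treatments was 76.5%, 75.6% without a count filter, 77.2% in DESeq2's Wald test, 79.2% at adjusted p under 0.01 and 75.1% to 78.7% when 1 library was left out (lowest without KA replicate 1, highest without OGD replicate 1). At adjusted p under 0.01 there were 255 shared rises, 345 shared falls, 976 genes higher after OGD and lower after KA, and 132 rises and 139 falls that held. Leaving out 1 library gave 332 to 494 shared rises, 437 to 560 shared falls, 177 to 275 rises and 184 to 249 falls that held. Among 7099 tested genes with 1 curated transcript, 76.1% were opposite. Scaling moved the median of all genes by under 0.03 log2 units.

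Replicate numbers gave no sign of pairing: deviations of same-numbered libraries correlated at -0.273 to 0.136, over 0.1 in 2 of 18 pairs. Those of differently numbered libraries correlated at -0.133 to 0.235, over 0.1 in 5 of 36 pairs. With 3 libraries per group these values cannot exclude pairing. With the replicate number as a block, 3018 genes were opposite (76.9%), 907 shared and 423 held.

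Some differences of responses changed sign, and none passed where its sign was reversed; Kbtbd7 passed in its first direction without KA replicate 2 (-0.17, adjusted p = 0.0476). Hmgb2 was at -0.0078 in DESeq2 and -0.0080 with its size factors. When 1 library was left out, the lowest and highest values were -0.031 and 0.075 for Hmgb2, -0.19 and 0.21 for Adora2a, -0.040 and 0.19 for Zfp111, -0.12 and 0.011 for Pard3, -0.081 and 0.0054 for Ccdc71l, -0.0086 and 0.15 for Ccnf, -0.53 and 0.19 for Ly86, -0.17 and 0.056 for Kbtbd7, -0.034 and 0.11 for Trim59, and -0.13 and 0.0042 for N4bp2l2. The cause was not tested. Over all alternatives, results for named genes lost their call 33 times and gained one 11 times.

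Counting noise limits genes of a few CPM, such as Arc, Igf1 and Ly86. Counts without strand limit genes with overlapping neighbours.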

Other observations

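Zinc-finger genes with symbols starting in Zfp were looked at after Zfp324, Zfp108 and Zfp111 appeared among the falls that held, so they support nothing. Of 308 tested, 28 rose and 92 fell after OGD, and 71 rose and 167 fell after KA (medians -0.12 and -0.31). They held 38 shared falls (12.3%), against 3.98% of all tested genes, and 0 shared rises. Of the falls, 10 (3.25%) held against the other control, against 1.67% of all tested genes. KA control was above OGD control in 193 of the 308 and below it in 49. By the summed level, these genes took 9284 to 9560 CPM in OGD control, 8699 to 8826 CPM after OGD, 10732 to 10991 CPM in KA control and 9991 to 10563 CPM in KA. Many of them are in families of similar sequence, and the authors' treatment of reads shared among them was not stated in the sources used here.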
